A study of Mus musculus with 6 samples.

Results

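The genes described here are 34 genes of the synaptic vesicle cycle, the sequence of docking, fusion and recovery that small vesicles go through at a nerve ending. They were chosen by gene symbol, and all 34 were found among the 17666 genes of the deposited table. The table holds RNA sequencing of the auditory nerve, microdissected from the cochleas of mice aged 1.5 to 2.5 months on a C57 background. There are 3 samples whose labels give the genotype as wildtype and 3 labelled as complement factor B knockout (FactorB KO), each sample being the 2 cochleas of 1 mouse. The design asks what the loss of factor B, a protease of the alternative complement pathway encoded by Cfb, changes in the nerve. The labels name no treatment and do not describe the deleted allele. They call the samples biological replicates, so the spread given here is that between single mice.

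Cfb itself went against the labels. Its normalized counts, which are gene counts on a per-sample scale set by the authors, given as whole numbers, were 55, 39 and 116 in the wildtype-labelled replicates 1, 2 and 3. In the knockout-labelled replicates 1, 2 and 3 they were 336, 351 and 376. The groups did not overlap, and the knockout-labelled samples were the higher ones (log2 difference 2.47, SE 0.38, limma adjusted p = 0.107, and 5.08-fold higher with a false discovery rate of 1.8e-06 in the authors' deposited table). Whether the counted reads lie inside the deleted stretch of the gene was not tested. Every direction below is therefore that of the libraries labelled knockout against those labelled wildtype.

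At a resting nerve ending, synapsins tether vesicles filled with transmitter in a reserve pool, and Rab3 proteins help to hold vesicles near the membrane. A SNARE protein on the vesicle (a vesicle-associated membrane protein, or VAMP) zips together with SNAREs on the cell membrane (syntaxin and SNAP-25) to force the membranes to fuse, complexin holds the partly zipped complex ready, and a synaptotagmin senses the incoming calcium. After fusion the ATPase NSF and its adaptor pull the SNAREs apart, and amphiphysin, dynamin and synaptojanin retrieve the membrane. The cell bodies of auditory neurons, where their messenger RNA is made, lie in the cochlea in the spiral ganglion, while their output terminals lie in the brainstem. The inner hair cell, which drives the auditory neuron, uses otoferlin as its calcium sensor for release and has a vesicular glutamate transporter of its own, Slc17a8.

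Among the 34 genes, a pair of synapsin genes and a pair of synaptotagmin genes marked the ends of what the libraries showed: the ratio of Syn2 to Syn1 was almost the same in each library, while that of Syt2 to Syt1 varied more than any other ratio of related genes examined. The windows upstream of their starts are printed for that reason, each from 250 bases before to 50 after a RefSeq transcript start in GRCm38.p6, written 5′ to 3′ on the gene's strand. They lie at chr10:109010926-109011225 on the minus strand for Syt1, chr1:134646362-134646661 on the plus strand for Syt2, chrX:20920869-20921168 on the minus strand for Syn1 and chr6:115134652-115134951 on the plus strand for Syn2. Capitals mark matches, on either strand, to the GC box (GGGCGG), the cyclic AMP response element (TGACGTCA), the TATA box (TATAAA) and the first part of the RE1 element bound by the repressor REST (TTCAGCACC).
Syt1: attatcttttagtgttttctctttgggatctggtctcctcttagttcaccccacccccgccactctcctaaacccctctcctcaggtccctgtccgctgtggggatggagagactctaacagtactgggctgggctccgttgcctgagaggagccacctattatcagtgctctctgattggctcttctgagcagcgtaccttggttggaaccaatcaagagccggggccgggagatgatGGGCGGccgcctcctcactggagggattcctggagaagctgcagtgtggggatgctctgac
Syt2: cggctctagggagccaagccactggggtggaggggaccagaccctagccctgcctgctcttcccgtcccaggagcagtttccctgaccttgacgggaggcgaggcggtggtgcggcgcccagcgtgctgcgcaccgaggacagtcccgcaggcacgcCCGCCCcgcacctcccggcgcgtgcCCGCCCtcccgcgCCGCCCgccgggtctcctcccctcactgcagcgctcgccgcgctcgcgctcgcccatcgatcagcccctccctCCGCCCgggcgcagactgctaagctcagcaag
Syn1: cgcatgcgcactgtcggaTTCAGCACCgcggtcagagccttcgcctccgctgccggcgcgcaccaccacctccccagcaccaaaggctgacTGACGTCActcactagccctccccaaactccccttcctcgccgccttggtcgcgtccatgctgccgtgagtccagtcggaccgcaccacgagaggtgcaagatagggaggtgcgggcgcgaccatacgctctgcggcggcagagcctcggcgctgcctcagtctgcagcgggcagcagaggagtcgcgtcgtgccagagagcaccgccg
Syn2: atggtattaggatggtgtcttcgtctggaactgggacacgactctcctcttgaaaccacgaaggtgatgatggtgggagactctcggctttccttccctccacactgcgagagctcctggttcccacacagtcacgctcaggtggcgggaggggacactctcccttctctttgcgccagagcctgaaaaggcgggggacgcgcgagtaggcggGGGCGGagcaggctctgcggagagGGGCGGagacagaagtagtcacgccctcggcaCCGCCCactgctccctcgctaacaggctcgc
Syn1 was the member whose window held the cyclic AMP response element and the RE1 letters, and it held no GC box. The printed windows of Syt1, Syt2 and Syn2 held 1, 4 and 3 GC boxes. Each of these genes has 2 windows, and the one printed has its transcript start nearest the 5′ end of the annotated gene. RefSeq windows were matched for 25 of the 34 genes, 34 windows in all. Of these, 61.8% held a GC box, 2.94% the cyclic AMP response element, 8.82% a TATA box and 2.94% the RE1 letters. Over 17023 windows of all genes the shares were 56.0%, 2.68%, 8.33% and 0.411%. A match describes letters in a window and says nothing of whether a factor binds there. The closely tied Syn1 and Syn2 shared none of the 4 motifs in these windows.

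All 34 genes were expressed, and 30 of them had a mean over 1000 normalized counts. To compare genes with each other, the normalized count was divided by the length of the longest annotated transcript in kb. On this level scale the most abundant was Cplx1, complexin-1, at 26572 ± 9577 per kb (SD, n = 3) in the wildtype-labelled libraries and 25598 ± 4164 in the knockout-labelled ones. Snap25, the membrane SNARE SNAP-25, followed at 20702 ± 7465 and 18087 ± 2152 per kb. These SDs give the spread between libraries. Within each library Cplx1 lay above Snap25 per kb. Next came Vamp1, the vesicle SNARE VAMP1, at 10541 ± 3062 per kb under the wildtype label, Rab3a at 9487 ± 3011, Syp (synaptophysin) at 9160 ± 2988 and Nsf at 6889 ± 1678. Under the same label 23 genes reached 1000 per kb. At the low end stood Stx1a (syntaxin-1A) at 102 ± 32.4 per kb, Rab3b at 26.2 ± 10.1 and Doc2b at 20.7 ± 26.4. The genes thus spanned about 3 orders of magnitude, and this ladder was nearly the same under both labels: 31 of 34 genes moved by 2 ranks or fewer, and the largest move was 6 ranks (Snapin, from 17 to 23).

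**Figure D1:**
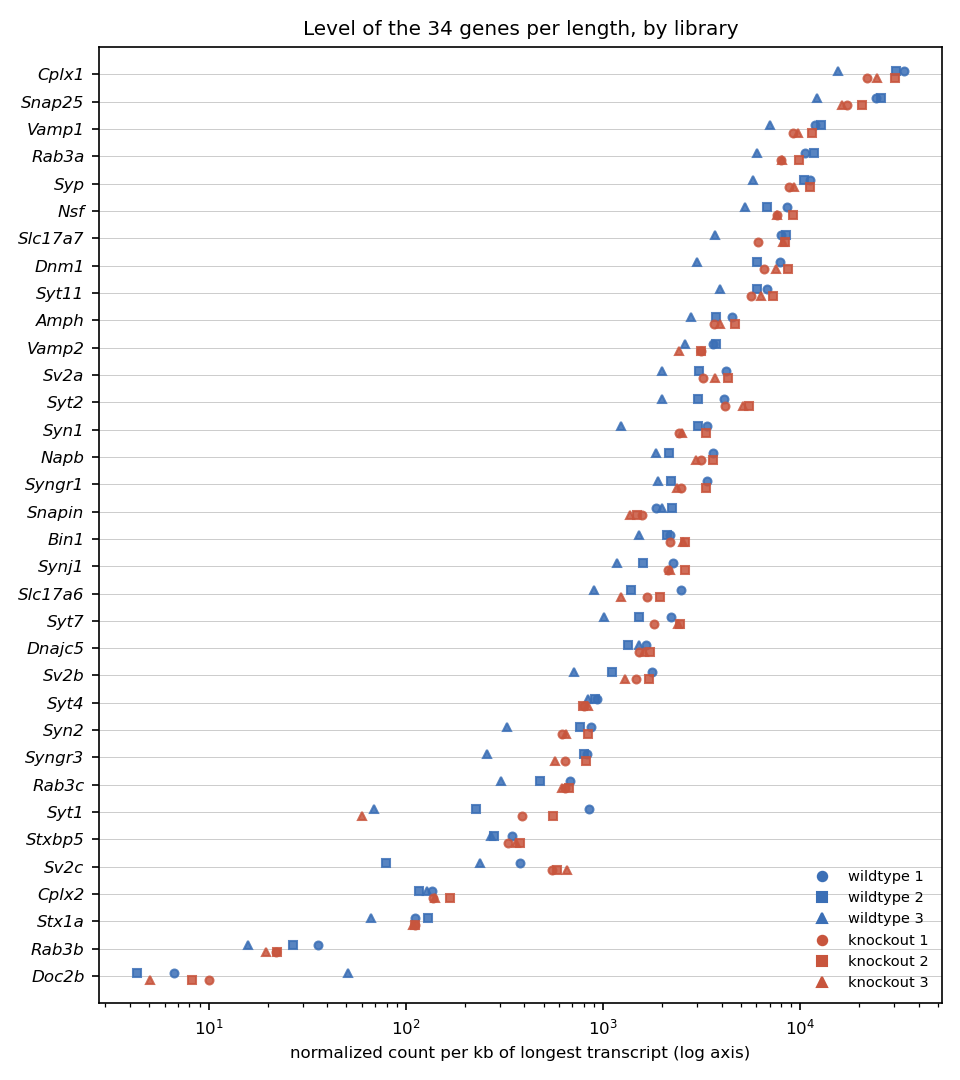
Level of each of the 34 genes in each of the 6 libraries, as normalized count per kb of the longest transcript on a log axis, with genes ordered by level, blue symbols for wildtype-labelled and red for knockout-labelled replicates. Cplx1 and Snap25 head the ladder and Rab3b and Doc2b end it, and the blue triangle of wildtype-labelled replicate 3 lies left of the other symbols for most genes.

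Related genes lay at different levels per kb. Vamp1 exceeded Vamp2 by 2.69 to 4.03 times in the 6 libraries, and Slc17a7 (the vesicular glutamate transporter VGLUT1) exceeded Slc17a6 (VGLUT2) by 3.19 to 6.65 times. Of the fast calcium sensors Syt2 exceeded Syt1 by 4.83 to 85.8 times. The synaptotagmin with the highest level was Syt11, which is no fast sensor, at 5595 ± 1490 per kb under the wildtype label, against 3054 ± 1070 for Syt2. Cplx2 reached between 0.00382 and 0.00822 of Cplx1 and Rab3b between 0.00224 and 0.00339 of Rab3a, per kb.

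Before the labels were compared, 1 library stood apart. Wildtype-labelled replicate 3 was the lowest library for 26 of the 34 genes (76.5%), against 27.2% of all genes. The 34 genes together made up 0.81% of its normalized counts, against 1.61% and 1.49% in wildtype-labelled replicates 1 and 2 and 1.28%, 1.55% and 1.33% in the knockout-labelled replicates. A list of 25 spiral ganglion neuron markers that holds no vesicle gene was low there too, with 19 of 25 genes at their lowest (76.0%) and a sum of 369966 normalized counts against 518964 to 632450 in the other 5 libraries. None of the 25 neuron markers was at 0 in any library. In these bulk samples fewer neurons and less RNA per neuron cannot be told apart. Markers of other cells were low in that library as well, with 7 of 9 central glia and 7 of 12 Schwann cell markers at their lowest. Of 16 hair cell markers 1 was lowest there. Among all genes 27.9% had their highest value in that library. A part of the other cell types in the low vesicle gene values was not tested. The same library had the largest sum of 15 red cell and marrow genes, 36325 against 11436 and 12221 in the other wildtype-labelled libraries and 2744 to 4229 in the knockout-labelled ones. Hbb-bt and Hbb-b2 of that list had identical values in each library, so the sums count them under both symbols. Whether blood or marrow content had a part in the low vesicle gene values was not tested. Total normalized counts lay between 38675077 and 41496282 per library.

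**Figure D2:**
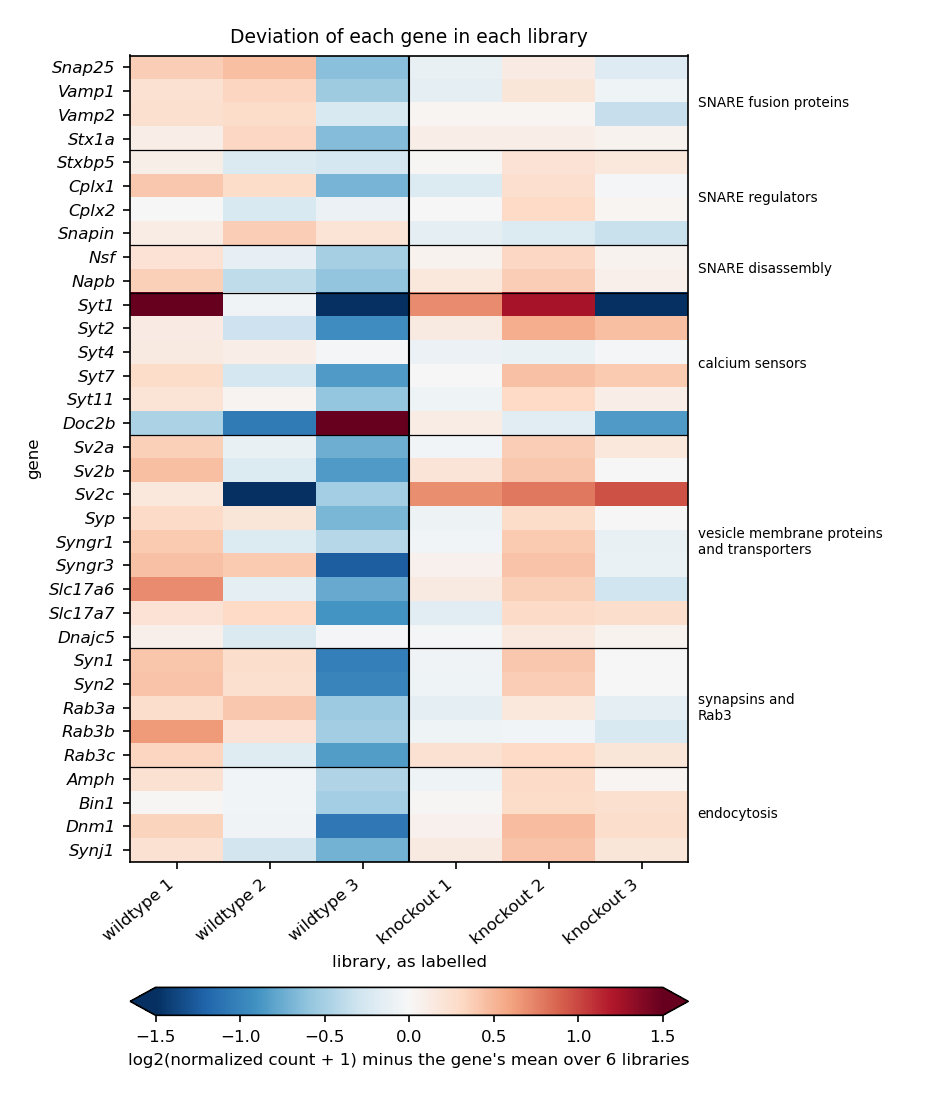
Deviation of each gene in each library from that gene's mean over the 6 libraries, in log2(normalized count + 1), with genes grouped by role and colours ending at 1.5 in either direction. The column of wildtype-labelled replicate 3 is blue for nearly all genes, and Syt1, Doc2b and Sv2c are the rows that depart from the columns.

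The low values of that library were shared across roles, and they differed in size between genes. Syt1 stood there at 0.13 of the mean of wildtype-labelled replicates 1 and 2, Syngr3 at 0.32, Syn1 at 0.39, Syn2 at 0.40 and Dnm1 at 0.43. Snapin at 0.97, Dnajc5 at 1.02 and Cplx2 at 1.02 stood level with the other wildtype-labelled libraries, and Syt4 at 0.91 was close to them. Sv2c was at 1.03, with wildtype-labelled replicates 1 and 2 far apart, and Doc2b was at 9.29. Of the genes level there, Snapin and Dnajc5 serve membrane traffic in many cell types besides neurons, while Cplx2 is the forebrain complexin. Bin1, also expressed well beyond neurons, stood at 0.71. Whether expression outside neurons had a part in these values was not tested. Over the 6 libraries the median range of a gene, highest minus lowest, was 1.10 on the log2 scale. After each library was centred on its neuron markers the median range was 0.62, with 27 genes narrower and 7 wider, and Syt11, Amph, Nsf and Syp each came to 0.29 or less. The 7 that widened were Doc2b, Snapin, Vamp2, Cplx2, Stxbp5, Dnajc5 and Syt4.

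**Figure D3:**
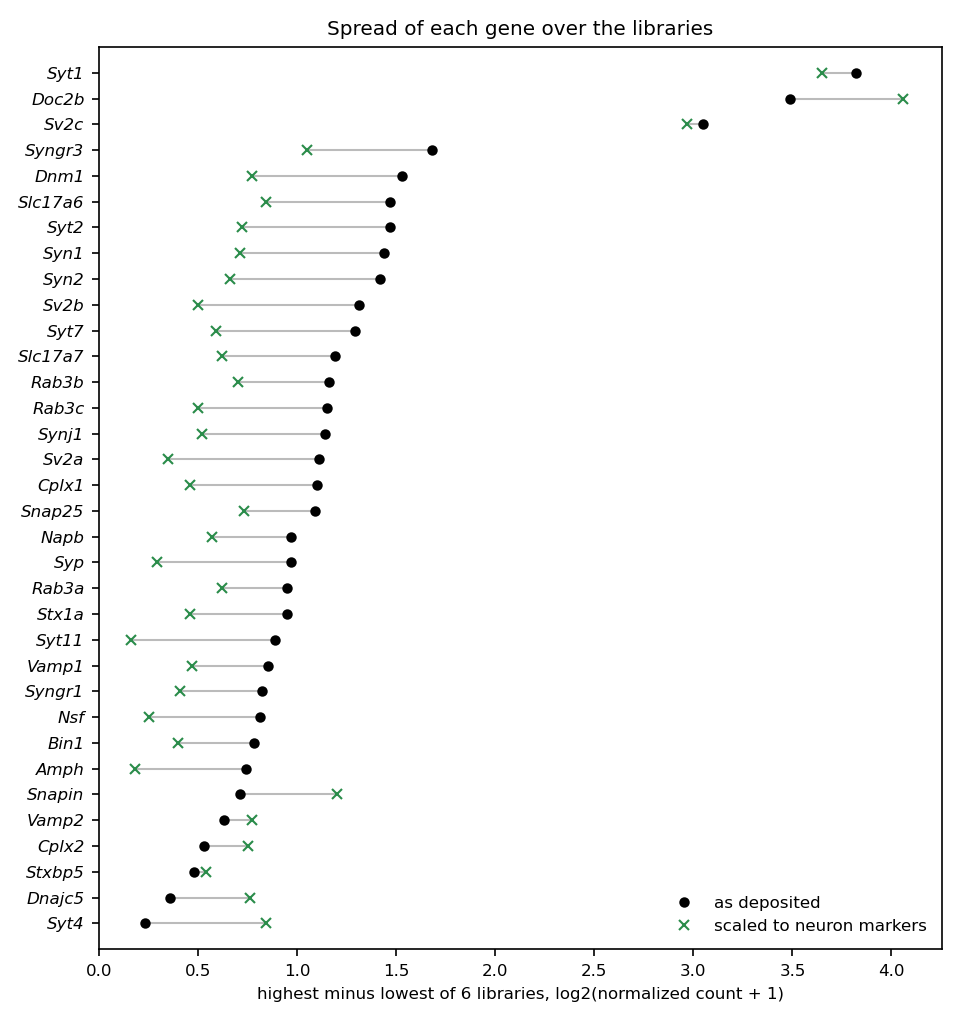
Range of each gene over the 6 libraries (highest minus lowest, log2(normalized count + 1)), as deposited (black points) and after each library was centred on 25 neuron markers (green crosses). Most ranges shrink, 7 widen, and Syt1, Doc2b and Sv2c stay near 3 or above.

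Between the labels, the values of 28 of the 34 genes overlapped. Sv2c, Syt2, Bin1 and Cplx2 lay wholly higher in the knockout-labelled libraries, and Snapin and Syt4 wholly lower. None of the 34 passed limma at an adjusted p of 0.05, where 0.158% of all genes were called (28 of 17666). At an unadjusted p under 0.05 there were 3 of 34 (8.82%: Snapin, Sv2c and Syt2), below the 20% of all genes (3529 of 17666). Sv2c, at 2.58-fold, was the 1 gene of 34 called higher in the authors' deposited table at a false discovery rate under 0.05, where 4.14% of genes were called higher. The same table called 1 lower, Snapin at 1.37-fold, where 3.25% of genes were called lower. The 4 genes without overlap that were higher are 11.8% of the set and the 2 that were lower 5.88%, against 13.6% and 14.9% of all genes. These counts were near or below their backgrounds.

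The differences leaned to the positive side, and the size of that lean varied with the library left out. Of the 34 differences 25 were positive and 9 negative (73.5% positive, against 50.7% of all genes), and the median was 0.22 on the log2 scale against 0.01 over all genes. The 25 neuron markers leaned the same way, with 16 positive and a median of 0.29, which was -0.04 without wildtype-labelled replicate 3. Without wildtype-labelled replicate 3 the median was -0.01, with 15 positive and 19 negative. Without wildtype-labelled replicate 1, the wildtype-labelled library with the highest vesicle gene share, it was 0.41, with 30 positive and 4 negative. Without knockout-labelled replicate 2 it was 0.10, with 23 positive and 11 negative. With each library centred on its neuron markers it was 0.03, with 18 positive and 16 negative, while the median of all genes moved to -0.19. The SD of the genes' median deviation between libraries of a label was 0.33, larger than the difference itself. The 95% interval of the difference lay within a 2-fold change in either direction for 20 of the 34 genes, so changes of that size or more were outside the interval for them, and it reached past 2-fold for the other 14.

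**Figure D4:**
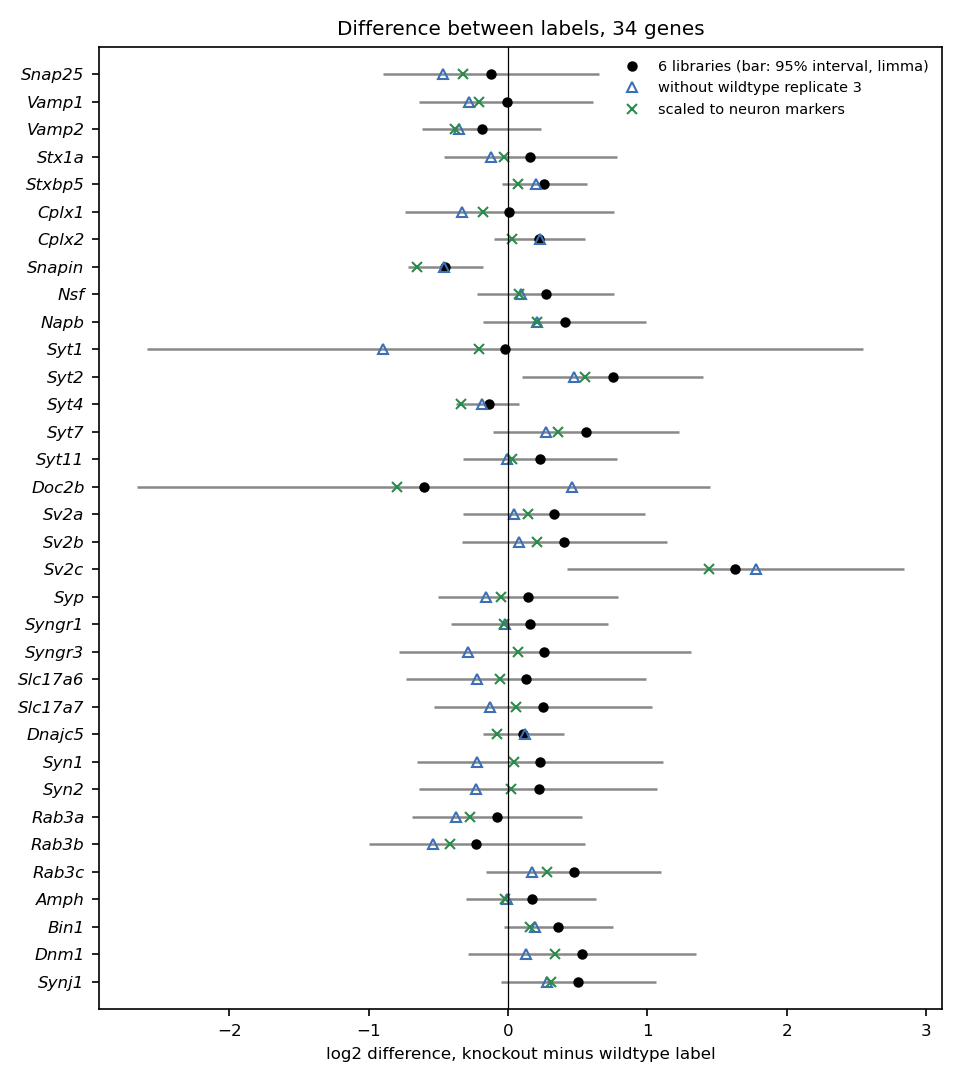
Log2 difference, knockout minus wildtype label, for each of the 34 genes over 6 libraries with its 95% interval from limma (black points and grey bars), without wildtype-labelled replicate 3 (blue triangles) and after centring on neuron markers (green crosses). Sv2c, Syt2 and Snapin have bars clear of 0, and for most genes the triangle lies to the left of the point, while the centring shifts all crosses left alike.

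Among the SNARE fusion proteins, the machine that merges the membranes, 3 of 4 genes had a negative difference and the median was -0.07. Snap25, at chr2:136713453-136782428 in GRCm38, had 118162, 125727 and 59190 normalized counts in the wildtype-labelled replicates 1 to 3 and 84655, 100096 and 80047 in the knockout-labelled ones. The wildtype-labelled values lay on both sides of the knockout-labelled ones, so the groups overlapped (log2 difference -0.12, SE 0.33, limma adjusted p = 0.862). Vamp1 had 67658, 72678 and 40200 against 52457, 65972 and 55472. It had the same shape as Snap25, with the highest and lowest values both under the wildtype label, and a difference of -0.01 (SE 0.27). Its paralogue Vamp2, the main vesicle SNARE of forebrain synapses, had 7990, 8227 and 5766 against 6929, 6925 and 5320, with knockout-labelled replicate 3 the lowest (-0.19, SE 0.18). Stx1a, a syntaxin of the cell membrane, was at 242, 280 and 144 against 242, 242 and 235. Its knockout-labelled values were nearly equal and lay inside the wildtype-labelled range (0.16, SE 0.26). Without wildtype-labelled replicate 3 the 4 differences were -0.47, -0.28, -0.35 and -0.12, negative for each of the 4 genes. Neuron marker centring, which lowers the difference of each gene in the table by the same amount (all-gene median -0.19), gave -0.32, -0.21, -0.38 and -0.03.

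The genes that regulate SNARE assembly did not move together. Snapin, which binds SNAP-25 and is also a subunit of a complex in lysosome and endosome traffic, had 3584, 4302 and 3844 normalized counts under the wildtype label and 3036, 2885 and 2632 under the knockout label. Each knockout-labelled value was below each wildtype-labelled value. The log2 difference was -0.45 (SE 0.11, 95% interval -0.72 to -0.18, limma adjusted p = 0.162, unadjusted p = 0.00522), the smallest limma p of the 34 genes. In the authors' deposited table it was 1.37-fold lower with a false discovery rate of 0.0198. The difference was -0.46 without wildtype-labelled replicate 3, -0.65 after neuron marker centring and -0.29 after a correction for transcript length.

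Cplx1, at chr5:108518554-108550024, had 73409, 66830 and 34259 against 48068, 65976 and 54060, overlapping fully, and a difference of 0.01 (SE 0.32) that was -0.33 without wildtype-labelled replicate 3. Cplx2, the forebrain complexin, had 672, 575 and 634 against 676, 831 and 691. The groups did not overlap, though 672 and 676 are close to each other, and the difference was 0.22 (SE 0.14, limma adjusted p = 0.408). Stxbp5, tomosyn, which competes with VAMP for the membrane SNAREs, had 3042, 2460 and 2388 against 2908, 3338 and 3192. Only wildtype-labelled replicate 1 fell among its knockout-labelled values (0.26, SE 0.13), and the difference was -0.13 after the length correction.

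The genes that take the spent SNARE complex apart, Nsf and Napb (beta-SNAP), had differences of 0.27 (SE 0.21) and 0.41 (SE 0.25). Nsf had 32400, 25655 and 19773 against 28942, 34584 and 28910. Napb had 15898, 9494 and 8210 against 13836, 16030 and 13002. In both genes wildtype-labelled replicates 2 and 3 lay below each knockout-labelled library and replicate 1 lay among them. Neither passed the test.

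The calcium sensors held both the steadiest and the most variable genes of the set. Syt2, the fast sensor of many hindbrain and neuromuscular synapses, had 28377, 20980 and 13663 normalized counts under the wildtype label and 28617, 37897 and 35515 under the knockout label. The groups did not overlap, but wildtype-labelled replicate 1 came within 240 counts of knockout-labelled replicate 1. The log2 difference was 0.75 (SE 0.28, 95% interval 0.10 to 1.40, limma adjusted p = 0.211), and the authors' deposited table gave 1.62-fold with a false discovery rate of 0.103. Without wildtype-labelled replicate 3 it was 0.47, and with neuron marker centring it was 0.55.

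Syt1, the sensor of most forebrain synapses, had 4114, 1096 and 334 against 1870, 2684 and 290. Each label held high and low libraries, and the highest was 14.2 times the lowest. The difference was -0.02 with an SE of 1.09 and a 95% interval from -2.59 to 2.55, so changes of several fold in either direction lie within it. In knockout-labelled replicate 3, where Syt1 was lowest, Syt2 was at 35515, Snap25 at 80047 and the median deviation of the 34 genes was 0.02. Slc17a6 had a like order over the libraries with a narrower range, its highest value being 2.76 times its lowest. Neuron marker centring left the range of Syt1 at 3.65 on the log2 scale, from 3.82.

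Syt4, a synaptotagmin that does not bind calcium in the usual way and serves dense core vesicles, was the steadiest gene, with 3628, 3561 and 3258 against 3106, 3096 and 3255. All knockout-labelled values were below the wildtype-labelled ones, by as little as 3 counts, and the difference was -0.14 (SE 0.10, limma adjusted p = 0.439). Syt7, the slow high-affinity sensor, had 14607, 10068 and 6682 against 12067, 16351 and 15889. Wildtype-labelled replicate 1 lay inside the knockout-labelled range and the other 2 below it (0.56, SE 0.28, limma adjusted p = 0.315). Syt11, which like Syt4 is no fast calcium sensor, had a range of 19736 to 36460 and a difference of 0.23 (SE 0.23). Its range after neuron marker centring was the narrowest of the 34, 0.16 on the log2 scale.

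Doc2b, a soluble high-affinity calcium sensor tied to spontaneous release, had 29, 19 and 223 against 44, 36 and 22. The value of 223 stood alone in wildtype-labelled replicate 3, the library in which most vesicle genes were lowest. The difference was -0.60 with an SE of 0.87, and it was 0.46 without that library. Of 16 hair cell markers 5 were also highest there (Slc17a8, Pou4f3, Slc26a5, Ocm and Chrna9), 10 lay between the extremes and 1 (Calb1) was lowest. Their part in the Doc2b value was not tested.

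The vesicle membrane proteins and transporters had a positive difference in 9 of 9 genes, with a median of 0.25, which was -0.02 without wildtype-labelled replicate 3, with 4 positive and 5 negative. After neuron marker centring, which shifts all genes alike, 5 were positive and 4 negative (5736 of all 17666 genes were positive). Sv2c, at chr13:95954594-96132577, stood apart from the other 8. It encodes a vesicle glycoprotein that is restricted to fewer neuron types than its relatives SV2A and SV2B. Its normalized counts were 3439, 722 and 2153 under the wildtype label and 4996, 5306 and 5977 under the knockout label. Each knockout-labelled value exceeded each wildtype-labelled value, and wildtype-labelled replicate 2, not 3, was the lowest. The mean was 2105 ± 1359 (SD, n = 3) against 5426 ± 501 (SD, n = 3), a log2 difference of 1.63 (SE 0.51, 95% interval 0.42 to 2.84, limma adjusted p = 0.183). The authors' deposited table gave 2.58-fold with a false discovery rate of 0.0461. Left-out libraries moved the difference: it was 2.12 without wildtype-labelled replicate 1, 0.99 without replicate 2 and 1.78 without replicate 3, and 1.22 after the length correction.

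Its relatives did not show such a gap. Sv2a had 18321, 13316 and 8607 against 13935, 18598 and 16037, overlapping, with a difference of 0.33 (SE 0.27). Sv2b had 9739, 6153 and 3931 against 8089, 9432 and 7131, also overlapping (0.40, SE 0.31). In both, wildtype-labelled replicate 1 was among the highest libraries and replicate 3 the lowest. The relatives shared 1 order over the wildtype-labelled libraries that Sv2c did not follow.

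Syp, the abundant vesicle protein synaptophysin, ranged from 16309 to 31975 normalized counts, with a difference of 0.14 (SE 0.27). Syngr1 (synaptogyrin-1) ranged from 7937 to 14034 (0.16, SE 0.24). Syngr3, its relative and the member on chromosome 17, 10.2 Mb from Cfb, had 1631, 1575 and 508 against 1255, 1612 and 1118. The value of 508 was the only one under 1000, and the difference was 0.26 (SE 0.44), or -0.29 without that library. The glutamate transporters that fill the vesicles overlapped as well. Slc17a7 had 24504, 26103 and 11404 against 18764, 25881 and 25341 (0.25, SE 0.33), and Slc17a6 had 10302, 5714 and 3728 against 6918, 8104 and 5121 (0.13, SE 0.36). The highest and lowest values of each lay under the wildtype label. Dnajc5, the vesicle chaperone cysteine string protein, kept within 8863 to 11363 over the 6 libraries (0.11, SE 0.12).

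The synapsins, which tether vesicles in the reserve pool, moved in step. Syn1 had 10955, 9882 and 4048 against 7967, 10924 and 8173, and Syn2 had 3348, 2950 and 1252 against 2391, 3229 and 2508. Both were lowest in wildtype-labelled replicate 3 and high in the other 2 wildtype-labelled libraries and knockout-labelled replicate 2. Their differences were 0.23 (SE 0.37) and 0.22 (SE 0.36), and -0.22 and -0.23 without wildtype-labelled replicate 3. Of the Rab3 proteins, small GTPases on the vesicle surface, Rab3a had 16559, 18282 and 9444 against 12505, 15445 and 12554 (-0.08, SE 0.26), Rab3c had 5742, 4046 and 2578 against 5393, 5672 and 5217 (0.47, SE 0.27) and Rab3b ranged from 53 to 120 (-0.23, SE 0.33). The knockout-labelled values of Rab3c lay close together, inside the wildtype-labelled range.

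The endocytosis genes had positive differences in 4 of 4, with a median of 0.43, which was 0.16 without wildtype-labelled replicate 3, with 3 positive and 1 negative. Bin1 (amphiphysin-2), which bends membrane and is expressed well beyond neurons, had 5832, 5633 and 4068 against 5860, 7009 and 6827. The groups did not overlap, by 28 counts between the 2 nearest libraries (0.36, SE 0.16, limma adjusted p = 0.279). Synj1, the lipid phosphatase synaptojanin-1 that strips the clathrin coat, had 16003, 11353 and 8404 against 15092, 18498 and 15595 (0.50, SE 0.24, limma adjusted p = 0.284). Dnm1, the GTPase dynamin-1 that cuts the vesicle neck, had 36446, 27856 and 13791 against 30348, 39926 and 34822 (0.53, SE 0.35). In both, wildtype-labelled replicate 1 lay among the knockout-labelled libraries and the other 2 below them. Amph (amphiphysin) ranged from 9466 to 15791 (0.17, SE 0.20), and after neuron marker centring its range was 0.18 on the log2 scale.

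Ratios of the normalized counts of related genes within a library do not depend on how the library was scaled, though they can depend on transcript length, and 12 such ratios were compared. In 2 of the 12 the labels did not overlap, both higher under the knockout label. The ratio of Sv2c to Sv2a was 0.188, 0.0542 and 0.25 under the wildtype label and 0.359, 0.285 and 0.373 under the knockout label (log2 difference 1.30). The ratio of Rab3c to Rab3a was 0.347, 0.221 and 0.273 against 0.431, 0.367 and 0.416 (log2 difference 0.55). After the length correction the differences of Rab3c and Rab3a were 0.10 and 0.13, which leaves no higher ratio, and those of Sv2c and Sv2a were 1.22 and 0.25. For each of these ratios the two-sided exact permutation test gave p = 0.1, the smallest that 3 against 3 can give, and 0.6 after Benjamini-Hochberg adjustment over the 12. This permutation test cannot reach 0.05 with 3 against 3.

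**Figure D5:**
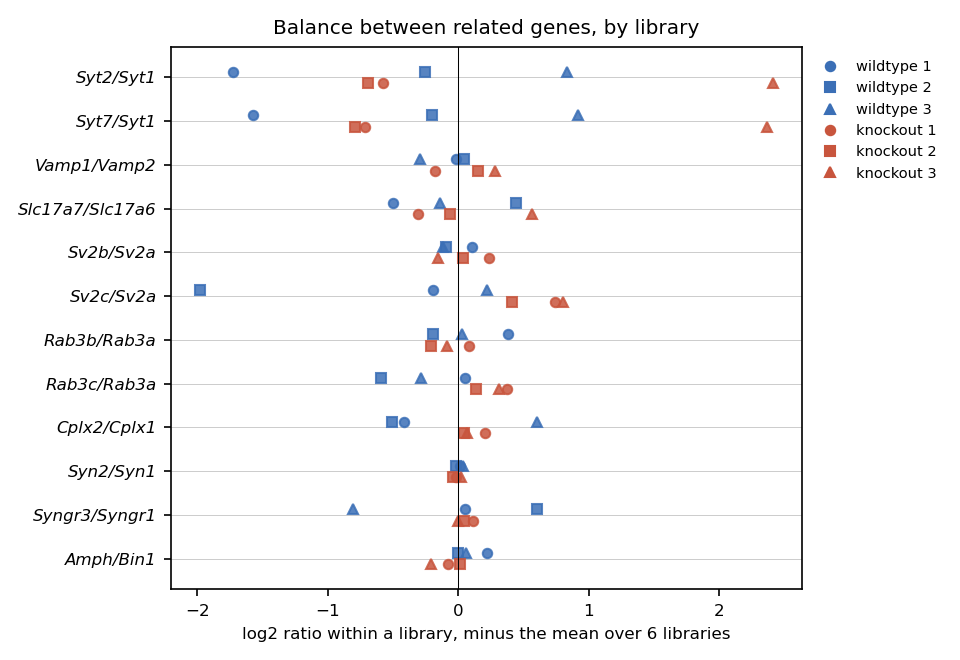
Log2 ratio of each of 12 pairs of related genes in each library, minus that pair's mean over the 6 libraries, with blue symbols for wildtype-labelled and red for knockout-labelled replicates. Sv2c/Sv2a and Rab3c/Rab3a have the red symbols to the right of the blue ones, Syn2/Syn1 gathers within 0.07, and the ratios to Syt1 spread over about 4.

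The ratio of Syn2 to Syn1 was the tightest, from 0.296 to 0.309 in the 6 libraries, a range of 0.07 on the log2 scale, although each gene alone varied by 2.67 times or more. Sv2b to Sv2a ranged over 0.38, Amph to Bin1 over 0.43, Vamp1 to Vamp2 over 0.58 and Rab3b to Rab3a over 0.59. At the other end Syt2 to Syt1 ranged over 4.15, with 6.9, 19.1 and 40.9 under the wildtype label and 15.3, 14.1 and 122 under the knockout label. The highest ratio under each label was that of its replicate 3, where Syt1 was at 334 and 290 normalized counts. The printed windows are those of these 4 genes.

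The spread within a label also differed. The SD of log2 values was smaller under the knockout label in 33 of 34 genes (97.1%, against 84.6% of all genes whose mean reached 50). The median SD of the 34 genes was 0.53 under the wildtype label and 0.18 under the knockout label, and the corresponding medians over all genes of that level were 0.25 and 0.11. With wildtype-labelled replicate 3 left out, the SD was smaller under the knockout label in 18 of 34 genes (61.0% of all genes of that level), and the median SD of the other 2 wildtype-labelled libraries was 0.20. An SD of 2 values tends to be lower than an SD of 3, so these counts and medians are not directly comparable with those above.

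Transcript length went along with the differences over the whole table. Genes whose longest transcript had 5 kb or more had a median difference of 0.27, and shorter ones -0.06. Of the 34 genes, the 10 at 5 kb or more had a median of 0.44 and the 24 shorter ones 0.16. After each library was corrected for a smooth trend on length, the medians were 0.16 and 0.16, and those of all genes 0.00 and 0.01. Sv2c, the longest of the 34 at 9.10 kb, is among the 10.

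Other genes of the same pathway were taken from a list of 78, of which 73 were in the table. None passed limma at an adjusted p of 0.05, and 17 (23.3%) had an unadjusted p under 0.05, close to the share of all genes. Without wildtype-labelled replicate 3 limma called 3, the genes Ston2, Otof and Synj2, where 2.37% of all genes were called. Among the 73 genes, 4 (5.56% of those with a rate) were called higher in the authors' deposited table, where 4.14% of all genes were. Wildtype-labelled replicate 3 was the lowest library for 27 of the 73 (37.0%), and the difference from the share among the 34 genes was not tested. Its median difference was 0.01.

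Of these 4 calls of the authors' deposited table, 3 concern endocytosis, whose genes make up 23 of the 73. Of the 23, 5 lay wholly higher under the knockout label and 3 wholly lower, where 13.6% and 14.9% of all genes did. The median difference of the 23 was 0.19, and 0.04 after the length correction. With all 6 libraries the limma adjusted p was 0.162 for Itsn1, 0.162 for Ston2 and 0.203 for Cltc. Itsn1 (intersectin-1), the scaffold that links coat proteins to dynamin, had 5997, 4413 and 3951 against 6832, 8113 and 7718, at 1.58-fold with a false discovery rate of 0.0239. Ston2 (stonin-2), the adaptor that retrieves synaptotagmin, had 880, 723 and 1018 against 1363, 1310 and 1213, at 1.48-fold (0.0279). Cltc, the clathrin heavy chain, had 36097, 28107 and 30922 against 41600, 45035 and 41717, at 1.35-fold (0.0385). In each of these 3 the groups did not overlap, and wildtype-labelled replicate 3 was the lowest library for Itsn1 but not for Ston2 or Cltc.

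The other gene binds vesicles. Syn3, the third synapsin, had 1198, 397 and 1096 against 2104, 2494 and 2681, at 2.70-fold (false discovery rate 0.00817). Like Sv2c it was lowest in wildtype-labelled replicate 2, and unlike Syn1 and Syn2 its labels did not overlap. All 15 red cell and marrow genes (Hbb-bt and Hbb-b2 having identical values) had a negative difference, with sums of 11436 to 36325 against 2744 to 4229, a median difference of -2.89 and 1 gene, Elane, at 0 in 1 library. Their part in the values of these pathway genes was not tested.

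Markers of other cell types that use vesicle genes were read beside these results. Of 16 hair cell markers 16 had a positive difference, with a median of 1.01 and sums of 8739 to 14067 under the wildtype label and 12473 to 21311 under the knockout label, and none was at 0. None of the 16 passed limma (5 at an unadjusted p under 0.05; Gfi1 was called higher in the authors' deposited table), and the labels overlapped in each gene. Otof (otoferlin) had 983, 811 and 3472 against 5395, 5168 and 2612, and Slc17a8 had 491, 594 and 993 against 965, 745 and 736. The library low in most vesicle genes was thus not low in Otof or Slc17a8. Of 8 markers of central neurons 7 had a positive difference, with sums of 174 to 277 against 219 to 591, and Slc32a1, Slc6a5, Gabra6 and Neurod6 were at 0 in at least 1 library. Of 12 Schwann cell markers 9 had a negative difference, with a median of -0.23 and none at 0. In 4 of the 12 the labels did not overlap, all lower under the knockout label, against 14.9% of all genes. Of 9 central glia markers 7 had a positive difference, with a median of 0.35. The authors' deposited table called Pmp22 (false discovery rate 1.85e-05), Ncmap (6.49e-06) and Mal (0.000821) of the Schwann cell markers lower. It called Gad1 (0.0109) of the central neuron and Cspg4 (0.00176) of the central glia markers higher. Over all genes that table called 3.25% lower and 4.14% higher. The part of these cell types in the values of the vesicle genes was not tested.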

How the data were processed

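RNA of 6 auditory nerve samples (3 per label) was sequenced from TruSeq libraries, per the labels' protocols. Per the submitters' processing notes, the tools were Partek, TopHat2 and DESeq2 and the build mm10. The deposited values are gene counts that the authors normalized per sample and rounded to whole numbers, treated here as a score with no count test, so the original depth is unknown. The authors' fold and false discovery rate were copied as deposited. Per the values, the authors' fold was within 1% of the ratio of label means for 99.8% of 13938 genes with means over 50, and 2061 genes had no rate.

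The analysis used log2(value + 1) of every gene averaging 1 or more (17666, none removed), fitted with limma 3.58.1 (R 4.3.3) using a mean trend and the label as the sole term, with Benjamini-Hochberg adjustment over all genes, and the code was tested on simulated data. Transcript lengths are from the GENCODE annotation of GRCm38 (17358 genes, all 34 members) and promoter windows from RefSeq. The genes named are the 34 members, other pathway genes called by limma or in the authors' deposited table (at most 8) and Cfb. Markers and other pathway genes named beside results were named for those values. The members and lists were chosen with earlier results of these data known. Of the other pathway genes, 1 is not reported here. Other pseudocounts, filters, scalings and left-out libraries were tried.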

Additional observations from a re-analysis of the deposited data

How the results depend on the processing

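No member passed limma in any of 13 other settings (smallest adjusted p from 0.0694 to 0.65), so these settings show nothing of the stability of single differences. Other pathway genes called were 0 in 12 of the 13 and 3 without wildtype-labelled replicate 3. The median difference, 0.218, was 0.216 with a pseudocount of 10, 0.218 with genes of a mean of at least 20 or with the replicate block, 0.209 with median centring, 0.025 with neuron marker scaling, 0.047 with array weights, 0.16 with the length correction, and -0.015 to 0.408 with a library left out. Same-numbered samples share only a number (their deviations correlated at -0.06, 0.10 and 0.25, and not every sample correlated best with its own number). With the replicate block limma called 7 genes of the table and not 28, with array weights 111, with neuron marker scaling 7 and with a library left out 0 to 419. Of the 34 log2 differences 15 kept their sign in each setting, and 15 with neuron marker scaling set aside. Signs turned with array weights for Stx1a (-0.01), Cplx1 (-0.20), Doc2b (0.06), Syp (-0.04), Syngr3 (-0.08), Slc17a6 (-0.11), Syn1 (-0.05) and Syn2 (-0.06). Neuron marker scaling shifts all genes alike (all-gene median -0.19), and this shift turned Stx1a (-0.03), Cplx1 (-0.18), Syp (-0.05), Syngr1 (-0.03), Slc17a6 (-0.06), Dnajc5 (-0.08) and Amph (-0.02). Signs turned with the length correction for Stxbp5 (-0.13), Dnajc5 (-0.14) and Rab3a (0.13). With a library left out, the difference ran from -0.47 to 0.07 for Snap25, -0.28 to 0.15 for Vamp1, -0.12 to 0.36 for Stx1a, -0.33 to 0.22 for Cplx1, -0.90 to 0.97 for Syt1, -0.01 to 0.39 for Syt11, -1.28 to 0.46 for Doc2b, -0.16 to 0.32 for Syp, -0.02 to 0.40 for Syngr1, -0.29 to 0.55 for Syngr3, -0.22 to 0.52 for Slc17a6, -0.13 to 0.47 for Slc17a7, -0.22 to 0.50 for Syn1, -0.23 to 0.48 for Syn2, -0.37 to 0.10 for Rab3a, -0.54 to 0.04 for Rab3b and -0.01 to 0.33 for Amph. The ratios ran from -0.25 to 1.37 for Syt2/Syt1, -0.47 to 1.18 for Syt7/Syt1, -0.13 to 0.38 for Slc17a7/Slc17a6, -0.02 to 0.17 for Sv2b/Sv2a, -0.28 to 0.01 for Rab3b/Rab3a and -0.27 to 0.43 for Syngr3/Syngr1. The causes of these turns were not tested.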

Other observations

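Syt1 had the widest range of the 34 vesicle genes over the libraries in the values as deposited, and genes of other functions had nearly the same profile. Of the other pathway genes Rph3a (rabphilin) had a like order with a narrower range, at 10558, 4806 and 2487 normalized counts in the wildtype-labelled replicates 1 to 3 and 6293, 8882 and 3809 in the knockout-labelled ones. For a ranking by likeness to Syt1, genes whose symbol begins with Gm were left out. Among the others with a mean of at least 100 normalized counts and a range of at least 3 on the log2 scale, the 8 with the highest Pearson correlation to Syt1 over the 6 libraries (0.97 to 0.99) were Kcnc2, Tnfrsf13c, Kcnq5, Crhr1, Zmat4, Nrxn3, Myom3 and Chrnb3. They were chosen after the values were seen and by this likeness, so the correlation is a description with no test, and the 6 points share the same libraries and scaling. Kcnc2, a fast potassium channel gene, had 4006, 1205 and 251 normalized counts in the wildtype-labelled replicates 1 to 3 and 2045, 2796 and 176 in the knockout-labelled ones. Chrnb3, a nicotinic receptor subunit gene, had 1294, 292 and 8 against 710, 957 and 16. Crhr1, a receptor for corticotropin-releasing hormone, had 2144, 549 and 254 against 1293, 2015 and 233. In each of these 3 genes replicate 3 was the lowest library under both labels, as it was for Syt1.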
